A study of Mus musculus with 9 samples.

Results

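The cells described here are 326 tumour-like cells of mouse ascites, the fluid that collects in the peritoneal cavity. They were set apart by high levels of Wfdc18, Gng13 and Sncg. They were taken from 3257 cells of a tumour-like gate, and 6132 of the 737280 barcodes of the library passed the filters on UMIs (unique molecular identifiers, each standing for 1 captured RNA molecule), genes and mitochondrial RNA. A cell entered the gate with at least 3 UMIs over Krt8, Krt18, Krt19, Wt1 and Upk3b, at most 1 UMI over the macrophage genes C1qa, C1qb and C1qc, and fewer than 3 UMIs over the mitotic genes Top2a, Birc5, Prc1, Cenpf and Cenpa. The members were the top 10% of the gate by the summed UMIs of Wfdc18, Gng13 and Sncg over all UMIs of the cell, and the other 2931 cells of the gate served as the comparison. The members were thus chosen by the measured values of these 3 genes, which are given only as a description.

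The data come from 1 single-cell library made with 10x Genomics chemistry from the cells that had infiltrated ascites. Its title names ID8_def29_vegf, after the ID8 mouse ovarian cancer cell line made to express Def29 and Vegf, and its genotype is given as B6_WT. The labels give no age, sex, number of mice or time of collection, and no label marks which cells carry the transgenes. The series also holds 4 vehicle and 4 deferiprone (12 h) bulk libraries of the ID8-Def29/Vegf line in culture, which are not analysed here. With 1 library there is no biological replicate and no test, so the intervals below are 95% intervals that cover counting error only.

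Wfdc18 encodes a small secreted protein of the WAP four-disulfide core family, whose members include protease inhibitors. Gng13 encodes a gamma subunit of heterotrimeric G proteins, which couple receptors to signalling inside the cell, and is known from taste and other sensory cells. Sncg encodes gamma-synuclein, a small soluble protein of neurons that is also found in some carcinomas. ID8 cells descend from mouse ovarian surface epithelium, a layer close to the mesothelium that lines the peritoneum, and the gate genes keratin 8, 18 and 19, Wt1 and Upk3b are marks of these layers.

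The 120 bases upstream of the annotated starts are shown for the 3 genes that define the score and for Defb36 and Rasl10a, which had 2 of the 3 highest ratios among the genes that the score did not use. The sequences are RefSeq promoter windows of GRCm38.p6, written 5′ to 3′ on the strand of the gene, with capitals for motif letters found on either strand. The motifs searched were the TATA box (TATAAA), the CCAAT box by its name, the GC box (GGGCGG), the AP-1 site (TGACTCA) and the TEAD site (GGAATG).
Wfdc18 (chr11:83708884-83709003, plus strand): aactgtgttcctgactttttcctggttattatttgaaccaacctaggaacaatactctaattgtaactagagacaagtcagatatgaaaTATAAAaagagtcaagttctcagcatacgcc
Gng13 (chr17:25717052-25717171, plus strand): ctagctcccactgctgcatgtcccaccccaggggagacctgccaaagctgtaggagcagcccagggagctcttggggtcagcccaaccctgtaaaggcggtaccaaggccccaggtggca
Sncg (chr14:34374670-34374789, minus strand): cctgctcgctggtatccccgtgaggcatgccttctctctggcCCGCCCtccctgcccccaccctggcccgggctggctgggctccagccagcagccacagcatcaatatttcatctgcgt
Defb36 (chr2:152604207-152604326, plus strand): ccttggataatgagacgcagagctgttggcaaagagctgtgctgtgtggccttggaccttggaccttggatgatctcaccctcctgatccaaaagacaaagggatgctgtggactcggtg
Rasl10a (chr11:5058008-5058127, plus strand): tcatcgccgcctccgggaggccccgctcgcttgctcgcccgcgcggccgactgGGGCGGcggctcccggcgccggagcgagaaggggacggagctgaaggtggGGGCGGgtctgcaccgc
The 5 windows carried no motif in common. The Wfdc18 window held TATAAA, the letters of the TATA box, which 12.4% of 32851 promoter windows of 250 upstream bases held on either strand. The Rasl10a window held GGGCGG, the letters of the GC box, and the Sncg window held its reverse complement CCGCCC, as 32.7% of windows did on either strand. The shown bases of Gng13 and Defb36 held none of the 5 motifs. Over the full 250 bases the GC content was 38.4% for Wfdc18, 58.8% for Gng13, 61.6% for Sncg, 50.4% for Defb36 and 72.4% for Rasl10a, beside a median of 52.4% over all windows.

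In GENCODE M21 on GRCm38, Wfdc18 lies on chromosome 11 at 83709015 to 83711348 on the plus strand. Gng13 lies on chromosome 17 at 25717171 to 25719406 on the plus strand and overlaps Chtf18 on the minus strand. Sncg lies on chromosome 14 at 34370274 to 34374789 on the minus strand. No source used here says whether the counting used strand, so reads of Gng13 and of Chtf18 may not be separable.

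The score was mainly a Wfdc18 score. Of the score UMIs in the members, Wfdc18 gave 2286 (85.6%), Gng13 gave 295 (11%) and Sncg gave 91 (3.41%). A Wfdc18 UMI was present in 285 members (87.4%), a Gng13 UMI in 135 (41.4%) and a Sncg UMI in 35 (10.7%). In 206 members (63.2%) only 1 of the 3 genes was detected, in 111 (34.0%) 2 were, and in 9 (2.76%) all 3 were. Wfdc18 gave more UMIs than either other gene in 253 members, Gng13 in 46 and Sncg in 13, and in 14 the highest genes were level.

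The members were a range of a score cut by the rule, and whether they form a separate cluster was not tested. The score was 0 in 2011 gate cells (61.7%). It had a median of 1042 counts per 1000000 UMIs (CPM) in the members, with a range of 549 to 7761. The lowest member stood at 549 CPM and the highest cell outside at 548 CPM. Within 20% of that boundary lay 66 members and 95 other cells. The median member held 6 score UMIs, and the lowest held 1.

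**Figure D1:**
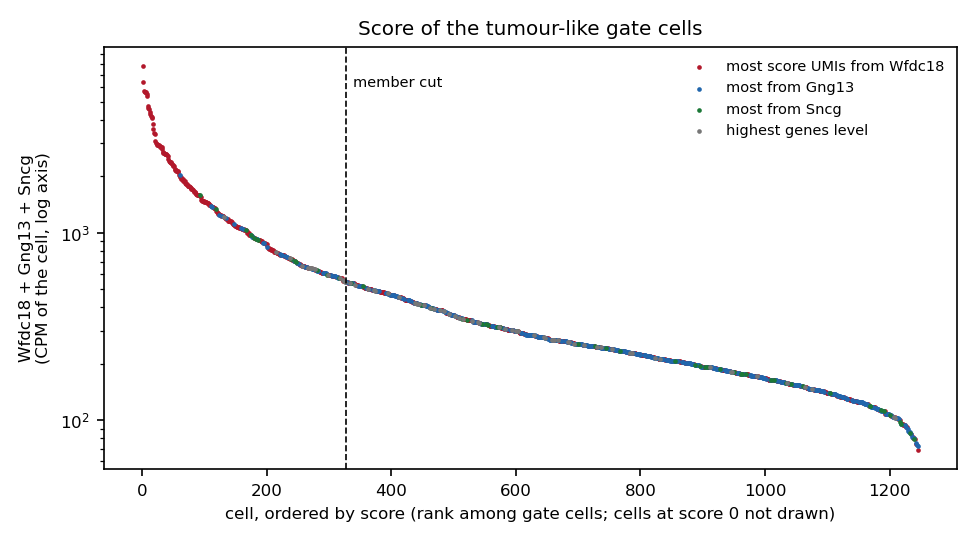
Score of each gate cell above 0, in CPM of the cell on a log axis, against its rank, with the cell coloured by the score gene that gave most of its UMIs and a dashed line at the member boundary. The values run down from 7761 CPM through the boundary at 549 CPM with no gap there, and the highest-ranked cells are led by Wfdc18.

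The label names 3 genes together, and the data bear this out only in part. When the gate was ranked by Wfdc18 alone, Gng13 stood at 59.8 CPM in the top 326 cells and 51.7 CPM in the rest, a ratio of 1.16 (0.944 to 1.41). Sncg in the same cells had a ratio of 1.38 (0.844 to 2.15). Both intervals include 1. When the gate was ranked by Gng13 alone, Wfdc18 stood at 225 and 162 CPM, a ratio of 1.39 (1.25 to 1.55). Sncg had a ratio of 1.40 (0.848 to 2.20) under that ranking. In the 92 cells with a Sncg UMI, Wfdc18 had a ratio of 2.04 (1.78 to 2.34), and Gng13 had a ratio of 1.09 (0.770 to 1.5). Those 92 cells were deep, with a median of 7080 UMIs, beside 5500 in the members and 4977 in the other gate cells. The part of depth in these ratios was not tested. The top cells by Wfdc18 and by Gng13 shared 40 cells, 12.3% of each set, where 10% of all gate cells fall in each set by construction. Since the 3 genes went together only in part, the members are called score-high cells below.

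Over the members together, Wfdc18 was at 1198 CPM, and over the other gate cells it was at 44.7 CPM. Macrophage-like cells of the library (1008 cells with at least 5 C1q UMIs), which should lack the gene, held Wfdc18 at 42.7 CPM. The level in the other gate cells is bounded by the rule, which took the highest cells out. With every cell thinned to 2000 UMIs, a Wfdc18 UMI was present in 75.2% of score-high cells, 7.68% of other gate cells and 7.59% of macrophage-like cells. The thinning kept 310 score-high, 2798 other and 316 macrophage-like cells and left out 16, 133 and 692 shallower ones. Unthinned, the shares were 87.4%, 17.0% and 7.44%, at median depths of 5500, 4977 and 1688 UMIs.

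Gng13 and Sncg are score genes too, and their levels are likewise a description. Gng13 was at 155 CPM in the score-high cells, 40.3 CPM in the other gate cells and 9.30 CPM in macrophage-like cells. After thinning, a Gng13 UMI was present in 25.8%, 7.04% and 0.316% of these cells. Sncg was sparse, at 47.7, 4.41 and 1.09 CPM. In the 220 cycling tumour-like cells that the gate left out, Wfdc18 was at 228 CPM, Gng13 at 84.3 CPM and Sncg at 1.69 CPM. Free RNA, read from barcodes of 1 to 50 UMIs, held Wfdc18 at 189 CPM and Gng13 at 52.2 CPM.

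Dmkn, which encodes the secreted epidermal protein dermokine and is the remaining marker given for these cells, was high throughout the gate. It was at 1490.2 CPM (1436 to 1546) in the score-high cells and 1213 CPM (1195 to 1229.8) in the other gate cells. The ratio was 1.23 (1.18 to 1.28), short of the 1.5-fold used below. A Dmkn UMI was present in 93.6% of score-high cells, 87.5% of other gate cells and 24.2% of macrophage-like cells.

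The 2 sets of gate cells were close in depth and in the gate genes. The score-high cells had a median of 5500 UMIs and 1636 genes, and the other gate cells 4977 UMIs and 1527 genes. Mitochondrial RNA took a median of 3.16% and 3.32% of UMIs, and ribosomal protein genes 31.4% and 31.2%. Wt1, the transcription factor of mesothelium and ovarian surface, was at 424 and 438 CPM, a ratio of 0.969 (0.900 to 1.04). Upk3b, a uroplakin that marks mesothelium, was at 328 and 321 CPM, a ratio of 1.02 (0.939 to 1.11). Scrublet, a doublet caller, marked 69 of the 6132 cells (1.13%), of which 1 was a score-high cell and 29 were other gate cells; they were kept.

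Marker lists of other cell types are given as summed levels. The 14 macrophage markers summed to 266 CPM in the score-high cells and 283 CPM in the other gate cells, against 79210.1 CPM in macrophage-like cells, with Adgre1 at 0 in the score-high cells. The pan-leukocyte list summed to 26.7 and 30.3 CPM, the B or plasma cell list to 0.524 and 3.65 CPM, the monocyte or neutrophil list to 4.72 and 8.88 CPM, and the endothelial list to 5.24 and 6.17 CPM. The T or NK cell list summed to 17.3 and 11.6 CPM with Cd3d, Cd3e and Cd3g at 0 in the score-high cells. The fibroblast list stood at 403 and 383 CPM, beside 329.8 CPM in the free RNA and 35 CPM in macrophage-like cells. The normal mesothelial list stood at 123 and 136 CPM. The erythroid list stood at 1895 and 1769.5 CPM, beside 13274 CPM in the free RNA. The dendritic cell list differed between the sets, at 349 and 717 CPM, beside 1678 CPM in the free RNA. Its 3 members with enough UMIs to compare are all genes of the class II pathway, while Flt3, Xcr1 and Clec9a were at 0 in the score-high cells.

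Of 4050 genes with a mean of at least 20 CPM over the gate, 28 (0.691%) were at least 1.5-fold higher in the score-high cells and 41 (1.01%) at least 1.5-fold lower, after 5 CPM was added to both levels. The log2 ratio over all 4050 genes had a median of 0.02, and its 5th to 95th percentiles ran from -0.34 to 0.35. The 15 genes at each end are described below by what they encode.

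Of the 15 highest genes, 4 are described together here, a grouping made after their values were seen. Tppp3, which encodes a protein that promotes tubulin polymerisation, was at 63.9 CPM (53.1 to 76.3) in the score-high cells and 22.2 CPM (20 to 24.7) in the other gate cells, a ratio of 2.88 (2.32 to 3.54). A Tppp3 UMI was present in 24.8% of score-high and 9.62% of other cells, and in 1.09% of macrophage-like cells. Rasl10a, a Ras-like GTPase, was at 67.6 and 29.9 CPM, a ratio of 2.26 (1.85 to 2.75). Cdc42ep2, an effector of the Cdc42 GTPase, was at 39.3 and 20.4 CPM, a ratio of 1.93 (1.48 to 2.48). Garnl3, which encodes a protein with a GTPase-activating domain, was at 59.7 and 34.3 CPM, but its log2 ratio of 0.72 came to 0.17 when cells were thinned to 2000 UMIs and ranked again. Rasl10a overlaps Gas2l1 on the other strand, so its count is uncertain.

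Of the cytoskeleton and annexin list, 28 genes could be compared. Among them 2 were higher and none was lower, beside 0.691% and 1.01% of all 4050 genes. A ratio above 1 was found for 25 of them, as for 2242 (55.4%) of all genes. The median log2 ratio of the list was 0.24, beside 0.02 over all genes. Tuba1a, an alpha-tubulin, was at 119 and 74.6 CPM, a ratio of 1.60 (1.38 to 1.85). Tagln2, which encodes the actin-binding protein transgelin 2, was at 185 and 116 CPM, a ratio of 1.59 (1.42 to 1.79).

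Defb36, a beta-defensin gene whose family encodes small secreted antimicrobial peptides, was at 457 CPM (428 to 489) in the score-high cells and 188 CPM (182 to 195) in the other gate cells, a ratio of 2.43 (2.25 to 2.62). A Defb36 UMI was present in 68.1% and 34.1% of the cells, and in 46.5% and 20.4% after thinning. The 10 highest score-high cells held 20.4% of that set's Defb36 UMIs. Its neighbour Defb19 was at 279 and 185 CPM, a ratio of 1.51 (1.37 to 1.66) that stayed under 1.5-fold with 5 CPM added. Of the score-high cells, 18.4% (14.3 to 23) were in the top 10% of the gate by Defb19, Defb36 and Actr3b, against 9.08% of the other gate cells. That rank shares Defb36 and Defb19 with the values above, so it is not separate from them. Defb36 overlaps Gm14163 on the same strand.

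Glutathione S-transferases of the mu class conjugate glutathione to reactive compounds. Gstm6 was at 364 CPM (338 to 392) in the score-high cells and 181 CPM (174 to 188) in the other gate cells, a ratio of 2.01 (1.85 to 2.19). Gstm1 was at 5955 and 4812 CPM, a ratio of 1.24 (1.21 to 1.26). These genes lie in a family of near-identical copies, so how reads were split between them is uncertain. Of the NRF2, glutathione and metallothionein list, 18 genes could be compared, none was higher or lower, 13 had a ratio above 1 (55.4% of all genes did), and the median log2 ratio was 0.16. Gsta4, an alpha-class transferase, was at 131 and 86.9 CPM, a ratio of 1.51 (1.31 to 1.73). Of the score-high cells, 14.4% (10.8 to 18.7) were in the top 10% by Gm26532, Gstm1 and Gstm2, against 9.52% of the other gate cells. That rank shares Gstm1 with the values above.

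Cyclin D1 and some genes of DNA replication were also higher. Ccnd1, which encodes cyclin D1, the cyclin of entry into the cell cycle, was at 136 CPM (119.7 to 153) and 77.1 CPM (72.8 to 81.5), a ratio of 1.76 (1.53 to 2.01). A Ccnd1 UMI was present in 47.5% of score-high and 28.6% of other cells. Of the DNA replication list, 6 genes could be compared, 2 were higher, none was lower, and all 6 had a ratio above 1, with a median log2 ratio of 0.46. Over all genes, 0.691% were higher and 55.4% had a ratio above 1. Pcna, the sliding clamp of DNA polymerase, was at 33.0 and 18.7 CPM, a ratio of 1.76 (1.32 to 2.32). At 18.7 CPM in the other gate cells, Pcna passed the 20 CPM filter only through the score-high cells. Its place among the 2 higher genes is thus a description. Lig1, a DNA ligase, was at 46.1 and 28.7 CPM, a ratio of 1.61 (1.26 to 2.02). Mcm6, a subunit of the replicative helicase, was at 47.7 and 31.6 CPM, a ratio of 1.51 (1.2 to 1.89).

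The gate had removed cells with 3 or more mitotic UMIs, so the few that remain are limited by the rule and are given as a description. At least 1 UMI of the 5 mitotic gate genes was present in 17.2% of score-high and 12.7% of other gate cells, and 2 were present in 2.15% and 1.84%. With only cells at 0 for these genes kept, the log2 ratio of Ccnd1 was 0.84, that of Pcna 0.61 and that of Lig1 0.58, just under 1.5-fold. Of the mitosis list, 7 genes could be compared and none was higher or lower, with a median log2 ratio of 0.21. When cells with at least 3 UMIs of host mesothelial or fibroblast markers were left out, 1969 of the 3257 gate cells remained. In that setting both higher replication genes fell short of 1.5-fold, Pcna at a log2 ratio of 0.19 and Lig1 at 0.46, while Ccnd1 was at 0.71.

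The p53 target and senescence list gave 8 genes to compare, of which none was higher or lower, with a median log2 ratio of 0.24. Cdkn1a, the inhibitor p21, was at 148 and 97.9 CPM, a ratio of 1.51 (1.33 to 1.72), and Phlda3, a repressor of Akt, was at 43.5 and 27.5 CPM, a ratio of 1.58 (1.23 to 2.0). Both stayed just under 1.5-fold once 5 CPM was added, with log2 ratios of 0.57 and 0.58. Neither went with Wfdc18 alone, whose top cells gave 1.11 (0.961 to 1.28) for Cdkn1a and 1.22 (0.930 to 1.58) for Phlda3. The 13 score-high cells led by Sncg gave 54 of the Cdkn1a UMIs, and in the 253 led by Wfdc18 the ratios were 1.37 (1.18 to 1.59) and 1.44 (1.08 to 1.88).

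The remaining genes of the 15 highest had no list of their own. Nr0b2, which encodes the nuclear receptor SHP, a repressor of transcription, was at 81.2 and 47.7 CPM, a ratio of 1.70 (1.42 to 2.03). Myoz2, known for a protein of the muscle Z-disc, was at 67.1 and 37.9 CPM, a ratio of 1.77 (1.45 to 2.15). AA467197 was at 79.1 and 43.5 CPM, a ratio of 1.82 (1.52 to 2.17). Ltbp1, which encodes a matrix protein that binds latent TGF-beta, had a ratio of 1.77 (1.33 to 2.31), and Habp4 had a ratio of 1.76 (1.32 to 2.32). At 19.6 and 19.0 CPM in the other gate cells, both passed the 20 CPM filter only through the score-high cells. The long non-coding RNAs Gm20442 and Lockd had ratios of 1.85 (1.46 to 2.31) and 1.72 (1.42 to 2.07). Lockd stood at a log2 ratio of 0.33 with at least 10 gate-gene UMIs and no C1q UMI per cell. A further 13 genes passed 1.5-fold, among them Hells, a chromatin remodeller, at 44.5 and 26.3 CPM, and Ptgds, a prostaglandin D synthase, at 99.6 and 61.9 CPM; these examples were picked after their values were seen.

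**Figure D2:**
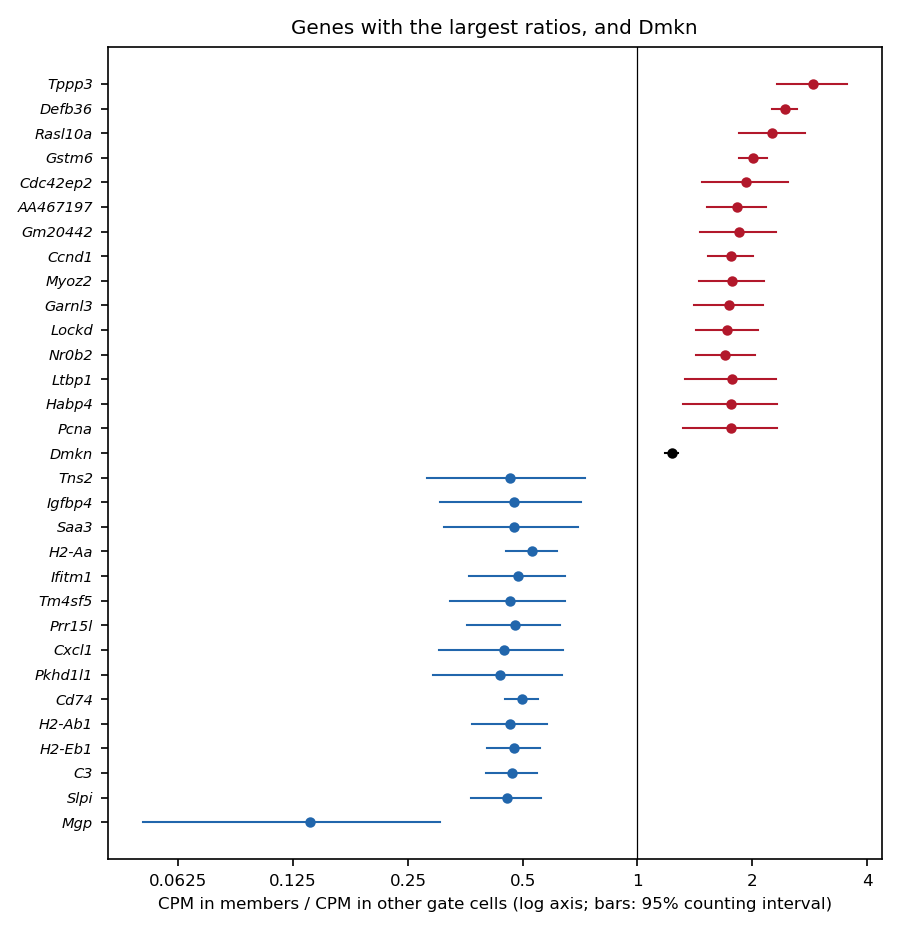
Ratio of the CPM in score-high cells to the CPM in other gate cells for the 15 highest genes (red), Dmkn (black) and the 15 lowest genes (blue), on a log axis with 95% counting intervals. Tppp3, Defb36, Rasl10a and Gstm6 lie at 2-fold or more, Dmkn lies at 1.23, and the wide interval of Mgp rests on 6 UMIs in score-high cells.

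Genes of the class II antigen presentation pathway were lower. Class II molecules carry peptides to T cells, and Cd74 is the invariant chain that escorts them. Cd74 was at 220.1 CPM (199.5 to 242) in the score-high cells and 443 CPM (432 to 453) in the other gate cells, so that the others were 2.01-fold higher (1.82 to 2.22). H2-Eb1 was at 84.9 and 179 CPM, 2.11-fold higher in the others (1.80 to 2.48). H2-Ab1 was at 43.5 and 93.9 CPM, 2.16-fold higher in the others (1.73 to 2.73), and H2-Aa was at 94.8 and 179 CPM, 1.89-fold higher (1.63 to 2.21). At least 1 UMI of these 4 genes was present in 58.3% of score-high and 72.2% of other gate cells, and at least 10 were present in 5.52% and 13.9%.

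These genes are abundant in macrophage-like cells, where Cd74 was at 5059 CPM and present in 70.4% of cells, and free RNA is given beside them. Set against the free RNA of barcodes of 1 to 50 UMIs, Lyz2 stood at 4.86% of its free level in score-high cells and 4.75% in other gate cells, Tyrobp at 5.26% and 5.80%, and Fcer1g at 6.32% and 5.69%. Cd74 stood at 22.5% and 45.3%, and H2-Eb1 at 24.8% and 52.1%. Set against barcodes of 100 to 200 UMIs, Lyz2 stood at 7.27% and 7.11%, Cd74 at 54.7% and 109.9%, and H2-Eb1 at 59.6% and 125%. Subtracting free RNA of barcodes of 1 to 50 UMIs, at a share read from Lyz2, Tyrobp and Fcer1g, gave Cd74 a log2 ratio of -1.19. In that setting H2-Eb1 was at -1.21, H2-Ab1 at -1.42 and H2-Aa at -1.03. Without subtraction these genes were at -0.99, -1.03, -1.03 and -0.88, in the same order. Whether free RNA accounts for the class II difference was not tested. When cells with at least 10 class II UMIs were left out, Cd74 kept a log2 ratio of -0.90 and H2-Eb1 of -0.69, while H2-Ab1 came to -0.44 and H2-Aa to -0.55, short of 1.5-fold. The class I and interferon list gave 12 genes to compare, of which none was higher or lower, with a median log2 ratio of -0.03.

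Some secreted immune and acute-phase genes were lower as well. Of that list, 13 genes could be compared, none was higher and 4 were lower, where 1.01% of all 4050 genes were lower. The median log2 ratio of the list was -0.29, while Ccl2 (0.03), Tgfb2 (0.05) and Igfbp2 (0.42) had log2 ratios above 0. C3, the central protein of complement, was at 93.3 CPM (80.1 to 108) in the score-high cells and 199 CPM (193 to 207) in the other gate cells, 2.14-fold higher in the others (1.84 to 2.5). A C3 UMI was present in 32.8% and 50.7% of the cells, and in 13.9% and 28.4% after thinning. Cxcl1, a chemokine that draws neutrophils, was at 16.8 and 37.6 CPM, 2.24-fold higher in the others (1.57 to 3.31). Igfbp4, which binds insulin-like growth factors, was at 13.1 and 27.6 CPM, 2.11-fold higher in the others (1.41 to 3.30). Saa3, an acute-phase protein, was at 14.1 and 29.8 CPM, but its level was 3472 CPM in macrophage-like cells, and the log2 ratio of -0.86 came to -0.22 in the stricter gate. It came to 0.00 with free RNA of barcodes of 1 to 50 or of 100 to 200 UMIs subtracted. At the share read from Lyz2, Tyrobp and Fcer1g it was -2.06. Cells in the top 10% by Abcb1b, Lgals2 and C3 made up 3.99% (2.14 to 6.72) of the score-high cells and 10.7% of the other gate cells, a rank that shares C3 with these values. For Pam, Abhd2 and Spry2 the shares were 11.7% (8.38 to 15.6) and 9.83%.

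Of the WAP and secreted protease inhibitor list, 12 genes could be compared, and their median log2 ratio was -0.02. None was higher and 2 were lower, beside 1.01% of all genes. Only Slpi, Wfdc1 and Wfdc17 among them belong to the WAP family of Wfdc18, at log2 ratios of -1.06, -0.34 and -0.12. Slpi, the secretory leukocyte protease inhibitor and a WAP protein, was at 49.8 CPM (40.3 to 60.9) in the score-high cells and 109.6 CPM (104 to 115) in the others, 2.20-fold higher in the others (1.79 to 2.74). Few cells carried most of it: the 90 highest other gate cells held 63.9% of that set's Slpi UMIs, and its log2 ratio of -1.06 came to -0.24 in the stricter gate. Serping1, the C1 inhibitor of complement, was at 68.6 and 122 CPM, 1.78-fold higher in the others (1.49 to 2.14). Wfdc2, Wfdc12 and Wfdc15b were at 0 in the score-high cells. Of the G protein list, 13 genes could be compared and none was higher or lower, with a median log2 ratio of 0.02, and Gng5, another gamma subunit named after its values were seen, was at 937 and 926 CPM. Of the synuclein and neuronal list, 3 genes could be compared and none was higher or lower; Uchl1, a deubiquitinase of neurons, was at 125 and 92.3 CPM, a ratio of 1.35 (1.17 to 1.55).

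The remaining lower genes had varied roles. Mgp, a matrix protein that inhibits calcification, was at 3.14 CPM in the score-high cells and 22.7 CPM in the others. However, 93.4% of the other cells' Mgp UMIs lay in 90 cells. The log2 ratio of -1.77 came to -0.12 when cells with host mesothelial or fibroblast markers, of which Mgp is one, were left out. That setting kept 1969 gate cells, and no label tells whether the cells it left out were host or tumour cells. Prr15l was at 29.3 and 61.4 CPM, 2.09-fold higher in the others (1.60 to 2.79). Pkhd1l1, a large membrane protein, was at 15.2 and 34.8 CPM, 2.29-fold higher in the others (1.58 to 3.45), but its log2 ratio came to -0.21 on thinned cells. Tm4sf5, a tetraspanin-like membrane protein, was 2.16-fold higher in the others (1.55 to 3.10), and its log2 ratio came to -0.25 without the host-marker cells. Ifitm1, an interferon-induced membrane protein, was 2.05-fold higher in the others (1.55 to 2.77). Tns2, a focal adhesion protein, was at 10.5 and 22.6 CPM, 2.16-fold higher in the others (1.38 to 3.57). Of the 26 further genes past 1.5-fold, Hes1, a target of Notch, was at 150.4 and 263 CPM, Rspo1, a Wnt agonist, at 66.0 and 114 CPM, and Col6a1 and Col6a2, chains of collagen VI, at 24.1 and 42.7 CPM and at 17.8 and 33.8 CPM; these too were picked after their values were seen.

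Of the ERK feedback and immediate early list, 15 genes could be compared, with a median log2 ratio of -0.16. Among them 1 was higher and 2 were lower, beside 0.691% and 1.01% of all genes. The higher gene was Ccnd1. Jun, a subunit of the AP-1 transcription factor, was at 159 and 244 CPM, 1.53-fold higher in the others (1.36 to 1.72), and Fosb, another AP-1 subunit, was at 35.1 and 57.4 CPM, 1.63-fold higher in the others (1.27 to 2.13). Fos was at 477 and 527 CPM and Egr1 at 234 and 249.8 CPM, both within 1.5-fold, and named after their values were seen.

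Other lists showed little. The iron handling list gave 9 genes, none higher or lower, with a median log2 ratio of -0.17, and Fth1, the ferritin heavy chain, was at 5606 and 6775 CPM, 1.21-fold higher in the others (1.18 to 1.23). Of the mesothelial and ovarian surface list, 15 genes could be compared and 1, Rspo1, was lower (median log2 ratio -0.05). Of 3 genes compared in the keratin and simple epithelial list, 1 was lower, Krt7, at 14.7 and 24.8 CPM (median -0.23). Of 9 in the mesenchymal and matrix list, 1 was lower, Col6a1 (median 0.06). No gene of these lists was higher. Over all 4050 genes, 0.691% were higher and 1.01% lower, and each list count rests on 1 gene. None was higher or lower among 31 nuclear respiratory chain genes (median log2 ratio 0.07), 35 ribosomal protein genes (0.00), 16 hypoxia and glycolysis genes (0.11), 15 ATF4 and ER stress genes (0.04), 12 ion transport genes (0.05), 6 epidermal genes (0.05) or 5 cholesterol and fatty acid synthesis genes (0.19).

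**Figure D3:**
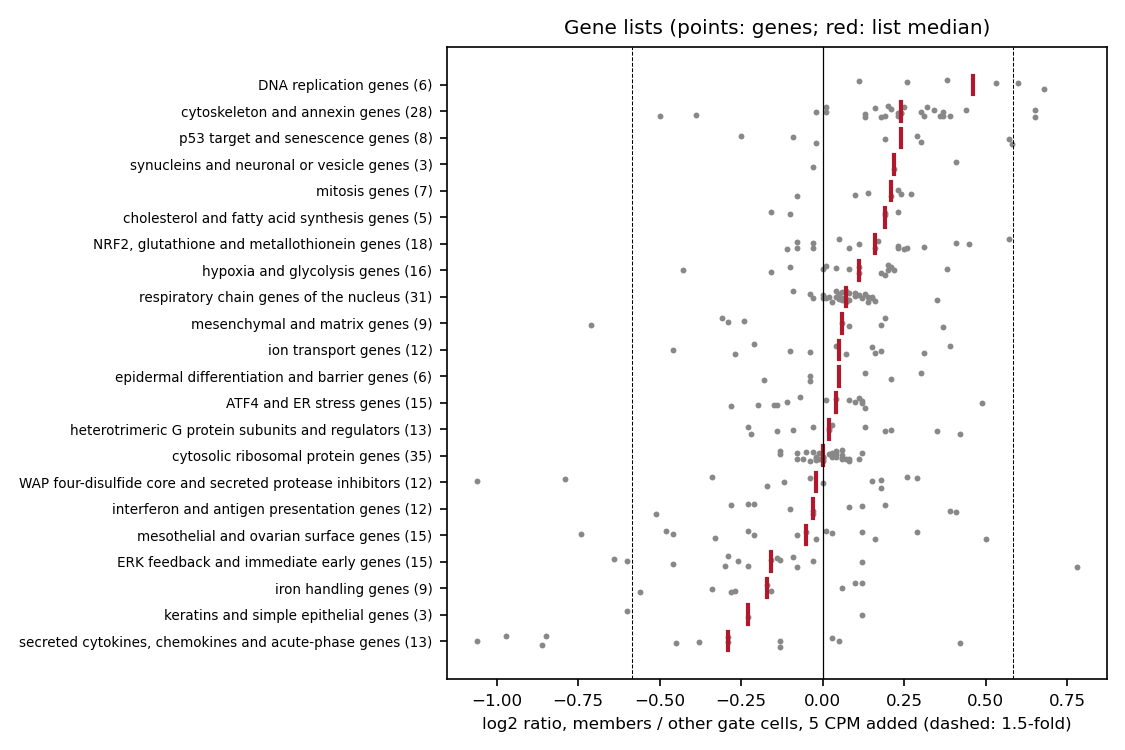
Log2 ratio of score-high to other gate cells, with 5 CPM added, for each gene compared in 22 function lists (grey points, number of genes in brackets) with the list median as a red bar and dashed lines at 1.5-fold. Among the lists drawn, which leave out the cell type markers and the leading genes of other clusters, DNA replication genes have the highest median, 0.46, and secreted cytokines, chemokines and acute-phase genes the lowest, -0.29, while ribosomal protein genes lie around 0.

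Across 5 bands of the score, several leading genes moved in steps and not only at the member boundary. The bands were the cells at 0 (2011 cells), those above 0 up to the 80th percentile (594), the 80th to 90th (326), the 90th to 95th (163) and the 95th to 100th (163), of which the highest 2 bands are the members. Tppp3 was at 19.3, 25.3, 31.1, 51.9 and 76.6 CPM from the lowest band to the highest. Defb36 was at 159.6, 196, 321, 389 and 530.0 CPM. Gstm6 was at 162, 205, 227, 314 and 418 CPM. Each of these 3 genes was higher in every band than in the band before it. So were Rasl10a, AA467197, Ccnd1, Ltbp1, Habp4 and Pcna. Gm20442, Myoz2, Garnl3, Lockd and Nr0b2 were lower in the highest band than in the 90th to 95th, with overlapping intervals. Lockd was at 82.5 and 63.7 CPM there. Cdc42ep2 went from 30.1 to 25.5 CPM at the member boundary and then to 54.0 CPM. These genes were chosen as the highest in the members, so their rise into the member bands is in part set by that choice.

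Among the lower genes, Cd74, C3 and Slpi had a first step between score 0 and any score. Cd74 was at 521, 321, 292, 268 and 169 CPM, and C3 at 219.9, 183, 128, 109 and 76.6 CPM. Slpi was at 131, 73.3, 75.2, 75.3 and 22.7 CPM, so that its 3 middle bands did not differ beyond counting error. Tm4sf5 had no fall at that step, at 42.5 and 46.7 CPM, and Tns2 was at 23.2, 20.4 and 24.4 CPM in the bands outside the members and 10.2 and 10.8 CPM in them. Depth moved with the first step: the median was 4551 UMIs in the cells at score 0 and 6237, 5726, 5529 and 5380.0 in the bands above, and its part in that step was not tested. Dmkn, at 1055, 1390.0, 1654, 1322 and 1669 CPM, was lowest at score 0 and had no order among the bands above it.

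**Figure D4:**
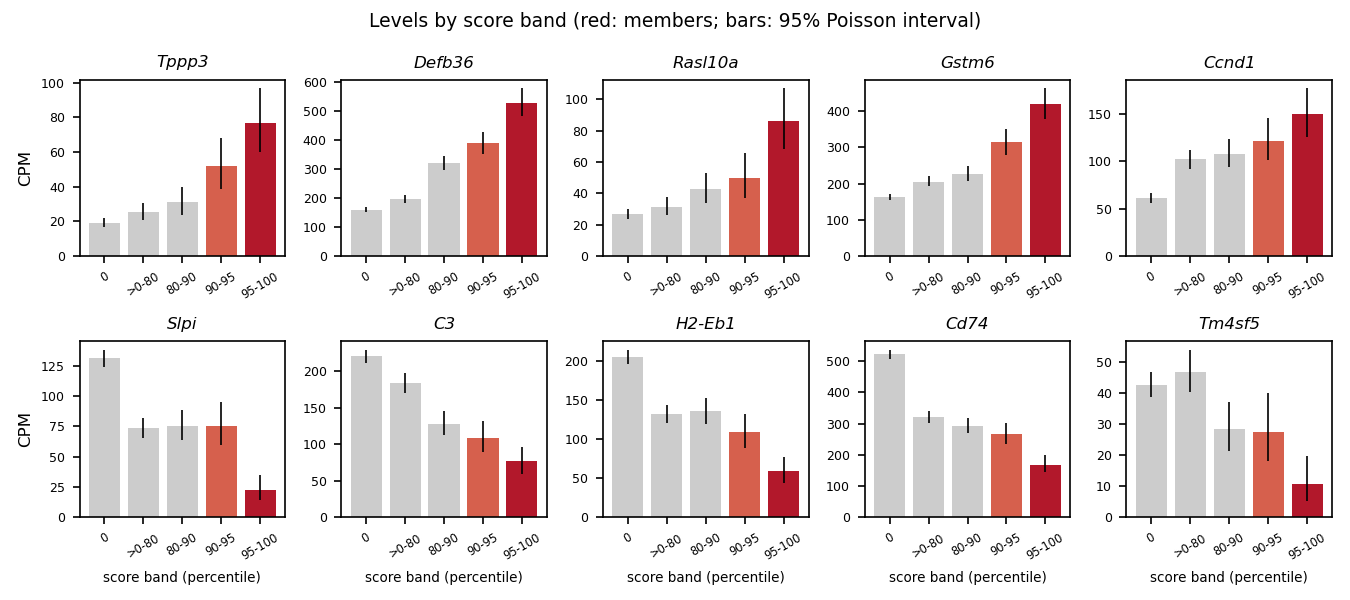
CPM of 10 genes in 5 bands of the score, with exact 95% Poisson intervals and the 2 member bands in red. The 5 genes of the upper row are higher in the highest band than at score 0, Defb36 at 530.0 and 159.6 CPM. The 5 of the lower row are lowest in the highest band. Not all of the genes highest in the members climb at every step.

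The genes at both ends were read again with the gate ranked by Wfdc18 alone and by Gng13 alone. The Wfdc18 ranking shares 253 of its 326 cells with the score-high cells and the Gng13 ranking shares 101, and the 30 genes were chosen in the score-high cells, so the counts that follow are in large part set by that choice. Of the 15 highest genes, 14 were past 1.5-fold when the gate was ranked by Wfdc18 alone and 3 when it was ranked by Gng13 alone, where 6 of the 15 had a ratio below 1. Of the 15 lowest genes, 14 were past 1.5-fold by Wfdc18 and 2 by Gng13, where 4 had a ratio above 1. The remaining 9 of the highest stayed above 1 and 11 of the lowest stayed below 1 by Gng13. Defb36 had a ratio of 2.77 (2.57 to 2.98) by Wfdc18 and 0.935 (0.838 to 1.04) by Gng13. Rasl10a had 2.51 (2.07 to 3.04) and 0.694 (0.498 to 0.944). Lockd went the other way, at 1.30 (1.05 to 1.59) by Wfdc18 and 1.62 (1.33 to 1.97) by Gng13, and Gm20442 was alike at 1.86 (1.47 to 2.32) and 1.81 (1.42 to 2.28).

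Several genes outside the 15 went opposite ways under the 2 rankings; they were picked after their values were seen. Defb19 had a ratio of 1.98 (1.82 to 2.16) by Wfdc18 and 0.385 (0.324 to 0.454) by Gng13. Gstm1 had 1.39 (1.37 to 1.42) and 0.631 (0.615 to 0.648). Lgals2, a galectin, had 0.632 (0.580 to 0.688) and 1.47 (1.38 to 1.57), and Krt7, a keratin of simple epithelia, had 0.326 (0.185 to 0.536) and 1.70 (1.29 to 2.21). Uchl1 had 1.26 (1.09 to 1.45) and 2.0 (1.77 to 2.26), above 1 under both. The class II genes had ratios below 1 under both, with Cd74 at 0.516 (0.467 to 0.568) by Wfdc18 and 0.704 (0.644 to 0.768) by Gng13. So did Saa3, at 0.416 (0.264 to 0.627) and 0.445 (0.282 to 0.670).

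**Figure D5:**
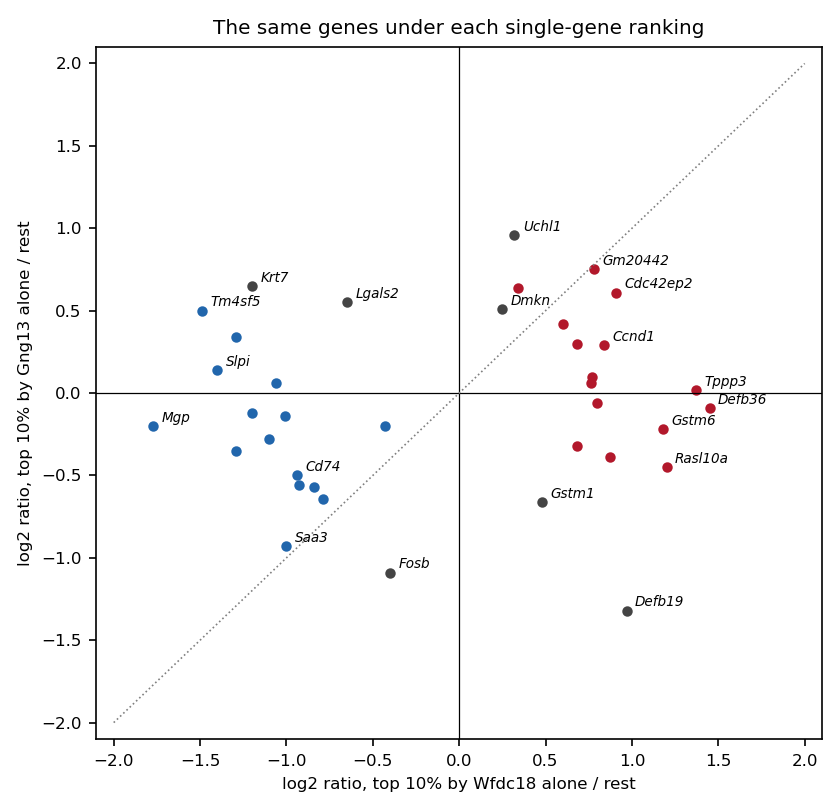
Log2 ratio of the top 10% of gate cells to the rest, ranked by Wfdc18 alone (horizontal) and by Gng13 alone (vertical), for the 15 highest genes (red), the 15 lowest (blue) and 7 others (grey), with equal values on the dotted line. Defb19, Gstm1 and Rasl10a lie to the lower right, Krt7, Lgals2 and Tm4sf5 to the upper left, and the class II genes to the lower left.

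The score-high cells were also divided by the score gene that led them. In the 253 led by Wfdc18, Defb36 was at 523 CPM (488 to 560.4), and in the 46 led by Gng13 it was at 127 CPM (84.8 to 182), below the 188 CPM of the other gate cells. Gstm6 was at 414 CPM (383 to 447) and 127 CPM (84.8 to 182). Defb19 held 3 UMIs in all the cells led by Gng13, 13.1 CPM (2.70 to 38.3), beside 185 CPM in the other gate cells. Gstm1 was at 2196 CPM (2009 to 2397) in the cells led by Gng13 and 4812 CPM in the other gate cells, and Lgals2 at 865 CPM (748 to 994) and 469.5 CPM. Cd74 was at 223 CPM (166 to 293) in the cells led by Gng13, below the 443 CPM of the other gate cells. Rasl10a was also lower in the cells led by Gng13, on 1 UMI, with a ratio of 0.146 (0.00369 to 0.817). There AA467197, Habp4 and Myoz2 had ratios of 0.603, 0.918 and 0.923, with intervals that include 1. The rest of the 15 highest genes had ratios above 1 in these cells. Relative to the other gate cells, Gm20442 had a ratio of 2.75 (1.59 to 4.46) in the cells led by Gng13 and 1.81 (1.39 to 2.31) in those led by Wfdc18, Lockd 2.56 (1.64 to 3.81) and 1.52 (1.22 to 1.88), and Ltbp1 2.45 (1.21 to 4.45) and 1.72 (1.26 to 2.32), with intervals that overlap in each pair. Tppp3 had 1.37 (0.549 to 2.86) and 3.21 (2.57 to 3.99), and Ccnd1 had 1.42 (0.913 to 2.1) and 1.79 (1.54 to 2.08).

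The 13 cells led by Sncg held high levels of 2 genes of the p53 list. Cdkn1a was at 598 CPM (449 to 780.4) on 54 UMIs, a ratio of 6.11 (4.57 to 8.02) to the other gate cells. Phlda3 was at 177 CPM (101 to 288) on 16 UMIs, a ratio of 6.44 (3.65 to 10.6). Defb36 was at 321 CPM (215 to 461) on 29 UMIs. These 13 cells are few, and the genes were picked after their values were seen. Their median depth was 8356 UMIs, beside 4977 in the other gate cells, and the spread of these UMIs over the 13 cells is not given. The 92 gate cells with a Sncg UMI include these 13. Against the rest of the gate they had log2 ratios of 2.85 for Cdkn1a, 1.97 for Phlda3, 1.74 for Ccng1 and 1.15 for Bax. These are the 4 genes of the p53 list with the largest ratios in the score-high cells.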

How the data were processed

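Single-cell RNA of 1 ascites library was analysed. The values deposited by the authors are unfiltered UMI counts for 27998 genes and 737280 barcodes, 35733776 UMIs in all. The aligner, genome build and strand setting remain not given in the sources used here. Barcodes were kept from 500 UMIs and 200 genes upward, with mitochondrial UMIs up to 10%. UMIs were summed over members and over other gate cells (1908471 and 15877911) and scaled to 1000000 UMIs (CPM). Levels have exact Poisson intervals, ratios exact conditional binomial intervals and shares Clopper-Pearson intervals, all at 95%; free RNA and doublets are not covered. A gene was called at 1.5-fold with 5 CPM added, among genes with a mean of at least 20 CPM over the gate. Genes named are the 15 highest and 15 lowest, up to 4 per list by absolute log2 ratio, Dmkn, and others marked as picked later. Members and lists were chosen with earlier results of these data known. The code of the comparison was run on simulated Poisson counts with known folds. That simulation had members picked at random and no spread between cells, so it does not cover the choice by score. Gene IDs were placed with GENCODE M21 (27722 matched, 276 did not). The 8 columns of the bulk table match no sample label and were left out. Python 3.11.15, numpy 2.4.6, scipy 1.17.1, pandas 2.3.3, scanpy 1.11.5, anndata 0.12.19 and matplotlib 3.10.9 were used.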

Additional observations from a re-analysis of the deposited data

How the results depend on the processing

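With 1 library, counting error is the sole error known, and 23 alternative settings and 4 more chosen after seeing the data were run. Counts are given as higher and lower, beside 28 and 41, with the Dmkn ratio, beside 1.23, where it moved. They were 63 and 91 with at least 10 gate-gene UMIs and no C1q UMI (Dmkn 1.18), 61 and 126 for the top 5% (Dmkn 1.37), and 20 and 24 for the top 20% (Dmkn 1.37). They were 47 and 50 ranked by Wfdc18 alone, 25 and 49 ranked by Gng13 alone (Dmkn 1.43), 43 and 127 by Sncg alone (Dmkn 1.15), and 518 and 1036 for the 9 members with all 3 genes (Dmkn 1.72). They were 76 and 154 on cells thinned to 2000 UMIs (Dmkn 1.36), where counts of UMIs are smaller. With 20 CPM added they were 8 and 15, with a mean of at least 50 CPM 9 and 17 of 1964 genes, with no filter 112 and 152 of 15691 genes, and past 2-fold 3 and 5. With free RNA subtracted they were 62 and 65 (Dmkn 1.35) from barcodes of 1 to 50 UMIs and 201 and 156 (Dmkn 1.54) from barcodes of 100 to 200. Of those chosen after seeing the data, leaving out cells with host mesothelial or fibroblast markers gave 45 and 94 (Dmkn 1.34), comparing with others at score 0 gave 54 and 59 (Dmkn 1.41), and the other 2 stayed within 1.5 times. The cause was not tested, except that fewer cells, UMIs or genes entered some settings.

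Over the 39 named genes past 1.5-fold, 26 log2 ratios changed sign, each under another choice of members. Over the 79 named genes not past it, 146 did, 38 of them with the score and its 3 genes kept. By Gng13 alone they were -0.09 for Defb36, -0.45 for Rasl10a, -0.22 for Gstm6, -0.39 for AA467197, -0.06 for Myoz2, -0.32 for Garnl3, 0.14 for Slpi, 0.34 for Pkhd1l1, 0.06 for Prr15l, 0.50 for Tm4sf5 and 0.65 for Krt7. By Sncg alone (92 cells) they were -0.03 for Cdc42ep2, -0.34 for AA467197, -0.01 for Garnl3, -0.04 for Nr0b2, -0.04 for Ltbp1 and -0.09 for Habp4. In the 9 members with all 3 genes they were -0.14 for Tppp3, -0.36 for AA467197, -0.55 for Garnl3, -0.83 for Lockd, 0.24 for Tm4sf5, 0.28 for Serping1, 0.01 for Krt7, -0.05 for Tagln2 and -0.39 for Tuba1a. No paired analysis was possible because the ascites library has no replicate and the vehicle and deferiprone columns match no sample label.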
